A study of Mus musculus with 3 samples.

Results

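The 10 genes described here belong to the bone morphogenetic protein (BMP) and Nodal pathways: Bmp4, Id1, Id2, Id3, Smad6 and Smad7 on the BMP side, and Nodal, Tdgf1, Lefty1 and Lefty2 on the Nodal side. They were chosen by symbol, and each symbol had a single identifier among the 32285 genes of the files. The study measured polyadenylated RNA of single cells of E14, a mouse embryonic stem cell line with a 129/Ola background. All cultures were grown in medium with 15% foetal bovine serum and 1000 U/mL leukaemia inhibitory factor and were treated 24 h after seeding. The control received DMSO for 6 h, and the other cultures received 10 uM tubercidin, an adenosine analogue, for 3 h or for 6 h. Each condition was a single library, the 3 h library has no control of its own length, and both comparisons with the control share the same control library. No difference could therefore be tested, and every interval below is an exact 95% interval that covers counting error only.

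BMP and Nodal proteins are secreted ligands of the TGF-beta family. BMP4 binds receptor kinases that phosphorylate SMAD1, SMAD5 and SMAD9, and Nodal, with the co-receptor encoded by Tdgf1 (Cripto), acts through SMAD2 and SMAD3. Both groups of SMAD enter the nucleus with SMAD4. BMP signals switch on the Id genes, whose products bind helix-loop-helix transcription factors and keep them from DNA, and in mouse embryonic stem cells this arm is known to hold back neural differentiation alongside leukaemia inhibitory factor. Nodal signals switch on Nodal itself and its secreted inhibitors Lefty1 and Lefty2, and both arms are dampened inside the cell by the inhibitory SMADs, SMAD6 and SMAD7.

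The control library held 2031 cells, the 3 h library 2365 and the 6 h library 2926. They held 104892739, 29892000 and 24681924 unique molecular identifiers (UMIs, each marking 1 captured RNA molecule), with medians of 48452, 11877 and 8004.5 per cell. Each pair of libraries shared 1 cell barcode. Levels are given in CPM, the UMIs of a gene per 1000000 UMIs of its library's cells, a share of each library's RNA that is blind to the lower UMI number per treated cell. The 10 stem cell markers, Pou5f1, Sox2 and Nanog among them, all stood at 10 CPM or more in each library, and summed to 4687, 5330 and 3951 CPM in the control, 3 h and 6 h. Summed markers of mesendoderm, the tissue that Nodal signals induce, stood at 1.88, 1.20 and 1.26 CPM, those of primitive endoderm at 8.60, 6.69 and 10.8 CPM and those of fibroblasts at 0.963, 1.37 and 2.11 CPM. Trophoblast markers summed to 39.5, 45.7 and 45.8 CPM, mostly from Krt8. Of the others, Tfap2c stood at 12.0, 7.93 and 9.80 CPM and Krt18 at 4.46, 7.43 and 6.24 CPM. Cdx2, Elf5 and Eomes were under 1 CPM in each library. Markers of primed cells summed to 75.0, 49.2 and 51.4 CPM, mostly from Dnmt3b. Of the others, Pou3f1 stood at 13.5, 8.10 and 5.67 CPM and Otx2 at 0.791, 0.201 and 0.243 CPM, and Fgf5 had 0, 2 and 4 UMIs. Those of 2-cell-like cells summed to 0.0286, 0 and 1.13 CPM. The stem cell sum, largely from Dppa5a, covers unequal members: Sox2 stood at 205, 80.6 and 81.1 CPM, Fgf4 at 85.9, 22.9 and 35.1 CPM and Klf4 at 60.5, 43.0 and 25.5 CPM, while Pou5f1 stood at 137, 159 and 213 CPM and Esrrb at 102, 131 and 193 CPM. What part the differences in these markers have in the results below was not tested.

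Promoter sequences of 6 of the 10 genes were matched in RefSeq (GRCm38.p6, the assembly also called mm10). The pair Id2 and Id3 is shown because, of the Id genes, they lay nearest to and furthest from the control at 6 h, Smad6 because its start site lies in a palindromic SMAD box, and Tdgf1 because its FOXH1 motifs flank a SMAD box. Each run holds the 250 bases before the start site and the first 10 after it, 5′ to 3′ on the gene's strand, with motif matches in capitals.
Id2, chr12:25096083-25096342, minus strand: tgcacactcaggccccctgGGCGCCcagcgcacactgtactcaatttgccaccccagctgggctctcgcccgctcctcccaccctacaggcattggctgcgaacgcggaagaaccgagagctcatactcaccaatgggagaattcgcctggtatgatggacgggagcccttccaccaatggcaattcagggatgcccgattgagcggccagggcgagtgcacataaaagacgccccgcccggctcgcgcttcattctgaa
Id3, chr4:136143572-136143831, plus strand: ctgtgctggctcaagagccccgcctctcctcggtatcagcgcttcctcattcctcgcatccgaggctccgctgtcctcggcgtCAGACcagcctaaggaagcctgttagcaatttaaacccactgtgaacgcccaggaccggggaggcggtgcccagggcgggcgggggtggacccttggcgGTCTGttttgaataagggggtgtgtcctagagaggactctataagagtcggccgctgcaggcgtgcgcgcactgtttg
Smad6, chr9:64022050-64022309, minus strand: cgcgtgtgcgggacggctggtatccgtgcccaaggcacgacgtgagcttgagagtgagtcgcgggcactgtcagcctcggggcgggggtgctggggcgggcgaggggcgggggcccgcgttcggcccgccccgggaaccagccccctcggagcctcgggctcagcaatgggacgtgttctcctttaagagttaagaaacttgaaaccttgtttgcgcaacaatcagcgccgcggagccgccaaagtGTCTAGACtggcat
Tdgf1, chr9:110946149-110946408, minus strand: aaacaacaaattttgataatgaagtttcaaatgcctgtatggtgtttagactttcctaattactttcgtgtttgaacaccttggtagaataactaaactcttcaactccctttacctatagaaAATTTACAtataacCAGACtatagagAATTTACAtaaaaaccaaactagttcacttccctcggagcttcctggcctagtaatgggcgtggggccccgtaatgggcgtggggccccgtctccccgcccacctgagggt
Motifs were searched on both strands of 300 bases, from 250 before to 50 after the start. CAGAC, the core SMAD box, was found in 49.6% of 32851 promoters, GGCGCC, a GC-rich box that BMP SMADs bind, in 11.9%, AATNNACA, a FOXH1 motif, in 12.2%, and TATAAA in 13.6%. Id3 held CAGAC 2 times, at -167 and, on the other strand, at -68, counted from the start site. Id2 held GGCGCC at -231. Tdgf1 held AATNNACA at -127 and -101 with CAGAC between them, at -113. Smad6 held GTCTAGAC, the palindromic form of the SMAD box, at -4, which 0.213% of promoters held. That motif was added after the promoters had been read, and it overlaps none of the others. The promoters of Bmp4 and Nodal held none of these 5 motifs in this window, which says only that these letters are not there.

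Bmp4, the BMP ligand of the group (ENSMUSG00000021835, chr14:46383520-46390669 on GRCm38, 4 exons), was lower in both treated libraries. It stood at 48.3 CPM in control cells (5066 UMIs), 20.2 CPM after 3 h (605 UMIs) and 17.5 CPM after 6 h (433 UMIs). Relative to control cells this was 2.39-fold lower after 3 h and 2.75-fold lower after 6 h, and the counting intervals of the log2 ratio, -1.38 to -1.13 and -1.61 to -1.32, did not reach 0. Between the treated libraries the log2 ratio was -0.21, with an interval from -0.39 to -0.03. Bmp4 overlaps 2 genes on the other strand. The antisense gene Gm15222 stood at 1.87, 0.970 and 0.405 CPM, and Gm15217, a protein-coding gene that overlaps the 3′ end of Bmp4, at 0.153, 0.0335 and 0.0810 CPM. Whether the counting used strand is not given in the sources used here, so reads of Bmp4 and of these genes may not be told apart where they overlap.

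The 3 Id genes, known targets of BMP signalling, differed from the control by unequal amounts. Id1 (ENSMUSG00000042745, chr2:152736251-152737410) stood at 90.9 CPM in control cells, 29.6 CPM after 3 h and 24.3 CPM after 6 h, from 9536, 886 and 601 UMIs. It was 3.07-fold lower after 3 h and 3.73-fold lower after 6 h, with intervals of the log2 ratio from -1.72 to -1.52 and from -2.02 to -1.78. Most of the difference was present by 3 h. Id3 (ENSMUSG00000007872, chr4:136143497-136145755, 3 exons) stood at 22.6 CPM in control cells, 16.1 CPM after 3 h and 4.82 CPM after 6 h, from 2369, 482 and 119 UMIs. Its lower level was mainly seen in the later library: the log2 ratio without a pseudocount was -0.49 at 3 h (-0.63 to -0.34), -2.23 at 6 h (-2.51 to -1.96) and -1.74 between the treated libraries (-2.04 to -1.45). Id2 (ENSMUSG00000020644, chr12:25093799-25097140, 4 exons) stood at 26.9 CPM in control cells, 22.6 CPM after 3 h and 24.6 CPM after 6 h, from 2819, 676 and 606 UMIs. Its log2 ratios of -0.25 at 3 h and -0.13 at 6 h lay close to those of the median gene.

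**Figure D1:**
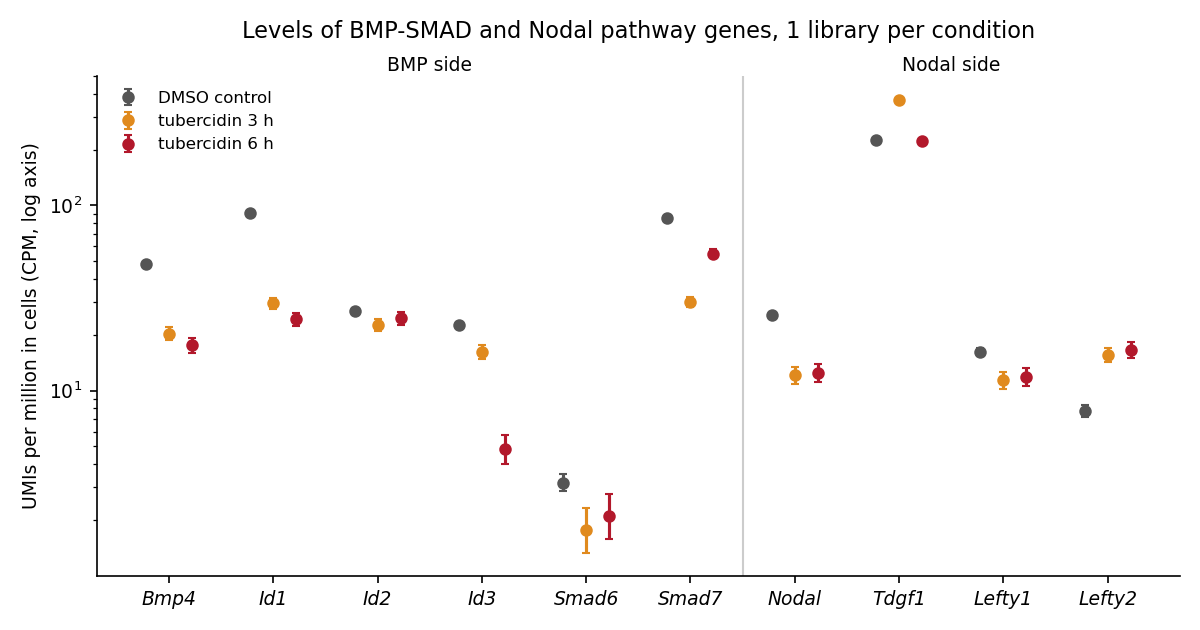
Level of each gene (x axis) in CPM (y axis, log scale) in the 3 libraries, with exact 95% Poisson intervals as bars. Id1, Bmp4 and Nodal are lower in both treated libraries, Id3 is lowest at 6 h (4.82 CPM), and Lefty2 is higher in both.

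The inhibitory SMADs were also lower in the treated libraries, to different degrees. Smad7 (ENSMUSG00000025880), which blocks both TGF-beta and BMP receptors, stood at 85.2 CPM in control cells, 30.0 CPM after 3 h and 54.9 CPM after 6 h, from 8940, 898 and 1354 UMIs. Relative to control cells it was 2.84-fold lower after 3 h and 1.55-fold lower after 6 h, and the 6 h level was 1.83-fold above the 3 h level (log2 ratio 0.87, interval 0.75 to 0.99). Among the 10 genes it was the one whose level at 6 h lay furthest above that at 3 h. Smad6 (ENSMUSG00000036867, chr9:63953076-64022059, 4 exons), which acts mainly on BMP receptors, was scarce, at 3.18, 1.77 and 2.11 CPM from 334, 53 and 52 UMIs. Its log2 ratios of -0.84 (-1.29 to -0.42) at 3 h and -0.60 (-1.05 to -0.17) at 6 h have wide intervals, and with a mean of 2.35 CPM it is the only one of the 10 genes under the 10 CPM mean used for the counts below.

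On the Nodal side the ligand was lower in both treated libraries and the co-receptor was not. Nodal (ENSMUSG00000037171, chr10:61417972-61425338, 3 exons) stood at 25.6 CPM in control cells, 12.1 CPM after 3 h and 12.5 CPM after 6 h, from 2683, 361 and 308 UMIs. That is 2.12-fold lower after 3 h and 2.05-fold lower after 6 h, and the treated libraries differed from each other by a log2 ratio of 0.05 (-0.18 to 0.27). Tdgf1 (ENSMUSG00000032494, chr9:110939603-110946158, 6 exons), the co-receptor, stood at 226 CPM in control cells, 370 CPM after 3 h and 223 CPM after 6 h, from 23702, 11072 and 5497 UMIs. It was 1.64-fold higher at 3 h (log2 ratio 0.71, 0.68 to 0.75) and indistinguishable by counting error from the control at 6 h (-0.02, -0.06 to 0.02).

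The Lefty genes, secreted inhibitors that bind Nodal and its co-receptor, differed from the control in opposite directions. Lefty2 (ENSMUSG00000066652, chr1:180893108-180899103, 4 exons) stood at 7.76 CPM in control cells, 15.6 CPM after 3 h and 16.6 CPM after 6 h, from 814, 466 and 409 UMIs, and so was 2.01-fold and 2.14-fold higher. Lefty1 (ENSMUSG00000038793, chr1:180935022-180938400, 4 exons) stood at 16.1, 11.4 and 11.9 CPM from 1694, 340 and 293 UMIs, with log2 ratios of -0.51 (-0.68 to -0.34) and -0.44 (-0.63 to -0.26). Both genes lie on the plus strand of chromosome 1. Since the Lefty genes are close copies, their 3′ ends were compared: of 511 stretches of 90 bases in the last 600 bases of the Lefty1 transcript, 10 were also found in Lefty2, and 0 of those of Lefty2 were found in Lefty1 or any other gene. The other 8 genes had 0 such shared stretches.

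**Figure D2:**
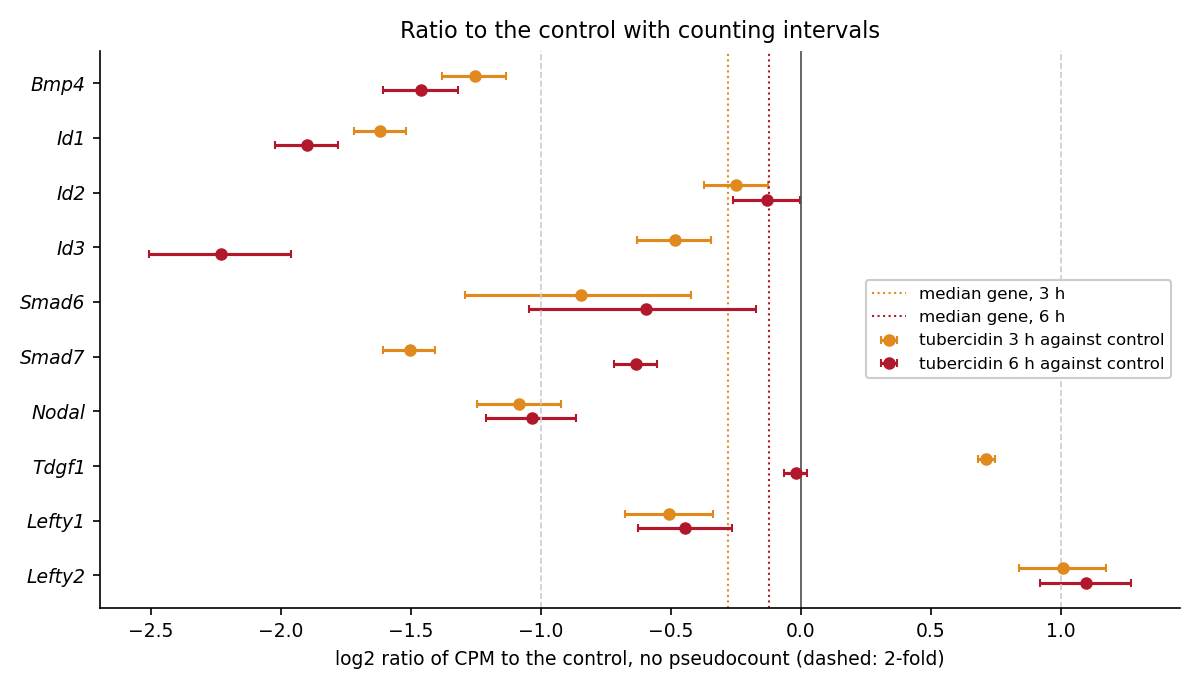
Log2 ratio of CPM to the control (x axis, no pseudocount) for each gene (y axis) at 3 h and 6 h, with exact counting intervals; dotted lines mark the median gene and dashed lines 2-fold. The 6 BMP-side genes lie below 0 at both times, and Lefty2 is the gene furthest above 0. Most genes lie below 0: of the 7884 set beside the group, 5725 do at 3 h and 4757 at 6 h. Id2 lies close to the median gene at both times.

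A ratio of 2 genes within a library does not depend on how libraries are scaled. There were 3.38 Id1 UMIs per Id2 UMI in control cells (3.24 to 3.53), 1.31 after 3 h (1.18 to 1.45) and 0.992 after 6 h (0.884 to 1.11). Id3 UMIs per Id2 UMI came to 0.840 (0.795 to 0.888), 0.713 (0.633 to 0.803) and 0.196 (0.160 to 0.239). The Id1 to Id3 ratio was 4.03 in control cells (3.85 to 4.21), 1.84 after 3 h (1.64 to 2.06) and 5.05 after 6 h (4.14 to 6.20). It was lowest at 3 h. The intervals of the control and 6 h overlap only from 4.14 to 4.21, and that overlap does not show that these ratios are equal. Lefty1 UMIs outnumbered those of Lefty2 in the control, at 2.08 to 1 (1.91 to 2.27), and were outnumbered in both treated libraries, at 0.730 (0.633 to 0.841) and 0.716 (0.614 to 0.834). UMIs of the co-receptor Tdgf1 per Nodal UMI were 8.83 (8.49 to 9.20), 30.7 (27.6 to 34.2) and 17.8 (15.9 to 20.1). Smad7 UMIs per Smad6 UMI were 26.8, 16.9 and 26.0, and the interval at 3 h (12.8 to 22.8) lay below that of the control (24.0 to 29.9). For Id1 over Bmp4, a target over its ligand, the ratio was 1.88 (1.82 to 1.95), 1.46 (1.32 to 1.63) and 1.39 (1.22 to 1.57). UMI counts are not scaled by gene length, and only the differences of these ratios between libraries are read here.

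**Figure D3:**
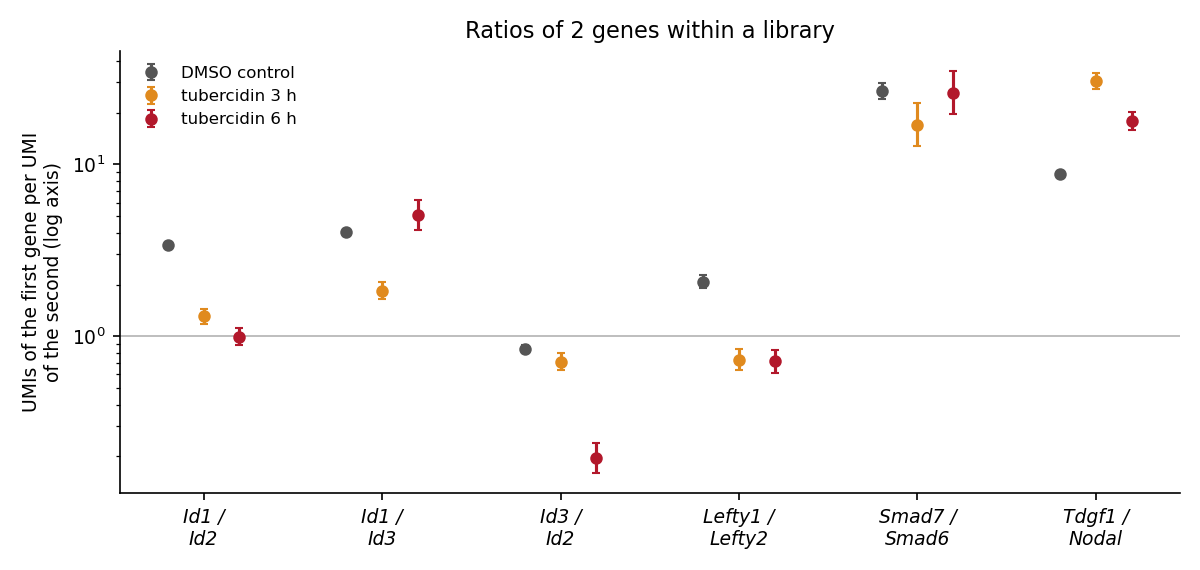
UMIs of the first gene per UMI of the second (y axis, log scale) for 6 pairs of genes (x axis) in each library, with exact 95% intervals. The Lefty1 to Lefty2 ratio lies above 1 in the control (2.08) and below 1 at 3 h and 6 h, and the Id3 to Id2 ratio is lowest at 6 h (0.196).

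The 10 genes were set beside all genes by a 2-fold rule, for each comparison apart. A gene was counted when the log2 ratio of CPM + 1 reached 1 in size, that is 2-fold. At 3 h 4 of the 10 genes (Bmp4, Id1, Smad7 and Nodal) were at least 2-fold lower, against 5.54% of the 7884 genes whose mean over the libraries reached 10 CPM, and 0 were at least 2-fold higher, against 0.888%. Smad6, which is under that mean, was kept among the 10 and did not pass 2-fold. At 6 h 3 genes (Bmp4, Id1 and Id3) were at least 2-fold lower, against 4.41%, and 1 (Lefty2) at least 2-fold higher, against 2.33%. Between the treated libraries Id3 was at least 2-fold lower at 6 h, against 0.165% of all genes, and 0 of the 10 genes were at least 2-fold higher, against 1.64%. The median log2 ratio of the 10 genes was -0.53 at both 3 h and 6 h, against -0.27 and -0.12 for all genes counted. The 6 BMP-side genes had medians of -0.90 and -1.02, and the 4 Nodal-side genes of 0.12 and -0.22. The genes were chosen with results of these libraries known, so these counts are a description and nothing particular to the group is read from them. Counting intervals lay below 0 for 8 of the 10 genes at 3 h and for 8 at 6 h, and above 0 for 2 and 1, but 65.5% and 51.9% of all genes lay below and 21.5% and 31.7% above. Between the treated libraries 4 of the 10 lay below 0 and 1 above, against 19.7% and 51.2% of all genes, so most genes of the libraries differed beyond counting error.

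Lefty2 and Nodal lay at the edge of the 2-fold rule. Lefty2 had a log2 ratio of CPM + 1 of 0.92 at 3 h and 1.00 at 6 h, and Nodal of -1.02 and -0.98. Median-of-ratios size factors, which moved the median of all genes by 0.23 at 3 h, left Id1 and Smad7 as the only genes of the 10 at least 2-fold lower there, with Bmp4 at -0.98, and brought Lefty2 to 1.14. With these factors 2.11% of all genes were at least 2-fold lower at 3 h and 1.76% higher, and 0.571% lower and 0.723% higher at 6 h against 3 h. Leaving out UMI scaling altogether and comparing UMIs per cell put the median gene at -2.16 at 3 h and -2.53 at 6 h, which mixes the number of UMIs per cell with each gene's share. On that scale Lefty2 was 0.401 UMIs per control cell, 0.197 per 3 h cell and 0.140 per 6 h cell, Id1 4.70, 0.375 and 0.205, and Tdgf1 11.7, 4.68 and 1.88. The higher Lefty2 and Tdgf1 levels are therefore shares of a smaller UMI total per cell and not more UMIs per cell, and sequencing depth and RNA content cannot be told apart in that total.

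The share of cells with a UMI was taken after every cell was reduced to 4000 UMIs, a depth that 122 of the 3 h cells, 284 of the 6 h cells and 0 control cells did not reach. A UMI of Id1 was then found in 501 of 2031 control cells (24.7%, Clopper-Pearson interval 22.8 to 26.6%), in 243 of 2243 cells at 3 h (10.8%, 9.58 to 12.2%) and in 217 of 2642 cells at 6 h (8.21%, 7.19 to 9.33%). Without that reduction the shares were 84.4%, 25.5% and 16.7%. Id3 was found in 8.32%, 5.88% and 1.55% of thinned cells, and Id2 in 8.86%, 8.47% and 9.42%. Unthinned shares were 51.2%, 15.5% and 3.66% for Id3 and 56.2%, 21.4% and 16.4% for Id2. Bmp4 was found in 17.8%, 7.85% and 6.85% of thinned cells and Nodal in 10.3%, 5.08% and 4.96%. The inhibitory SMAD gene Smad7 was found in 28.4% of thinned control cells, 9.99% of 3 h cells and 18.6% of 6 h cells, and Smad6 in 1.13%, 0.535% and 0.871%. Lefty2 went from 2.90% (2.22 to 3.73%) in the control to 5.35% (4.46 to 6.36%) at 3 h and 4.81% (4.02 to 5.69%) at 6 h, while Lefty1 was at 5.71%, 3.88% and 3.94%. Where shares and CPM differ in their order, as between the treated libraries for Lefty2 and Nodal and between 6 h and the control for Id2 and Tdgf1, no order is read. Tdgf1 was found in 55.0% of control cells, 74.1% at 3 h (72.3 to 75.9%) and 57.6% at 6 h. The cultures are labelled as a single cell type, so no cells that should lack these genes were at hand to set a background for the shares.

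**Figure D4:**
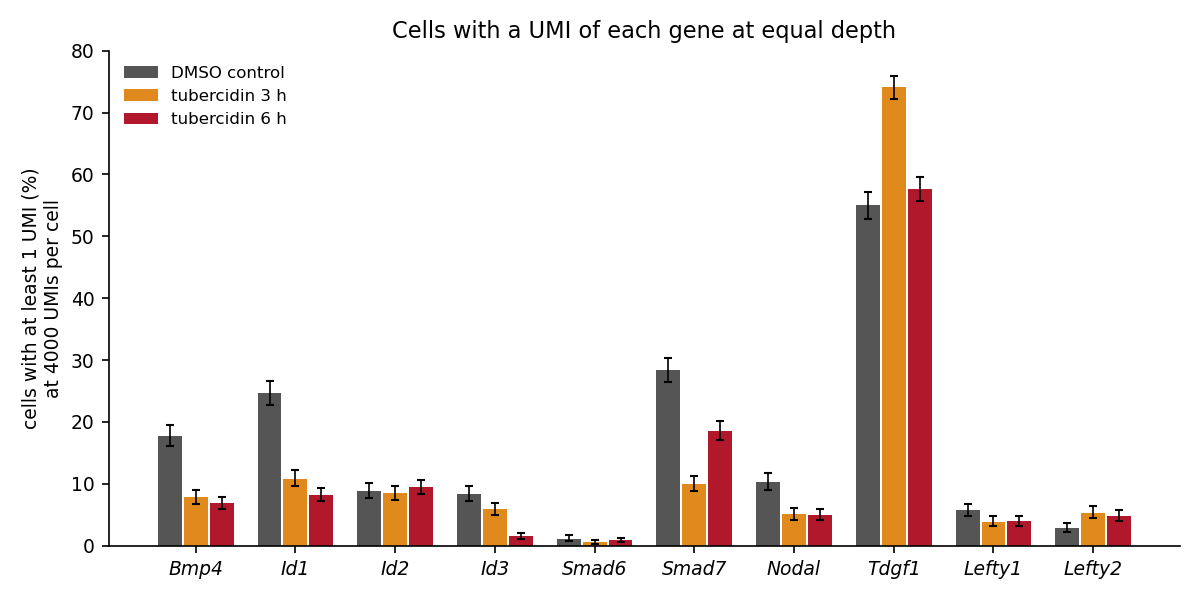
Share of cells with at least 1 UMI of each gene (y axis, percent) after every cell was reduced to 4000 UMIs, in each library, with Clopper-Pearson 95% intervals as bars. Id1 and Smad7 are found in fewer treated cells than control cells, Id3 is rarest at 6 h (1.55%), and Tdgf1 peaks at 3 h (74.1%).

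Free RNA was read from the barcodes past rank 5000, down to rank 15000 in order of UMIs. Id1 stood there at 93.9, 29.5 and 19.1 CPM in the control, 3 h and 6 h, close to its level in cells, and Smad7 at 57.3, 15.0 and 35.4 CPM. Lefty2 stood at 6.34, 8.42 and 9.20 CPM from 22, 18 and 13 UMIs, and Nodal at 15.6, 4.21 and 3.54 CPM from 54, 9 and 5 UMIs. Levels were also taken apart in cells with few and with many UMIs. Cells of each library were ordered by UMIs and cut into 3 equal parts. Where UMIs were fewest Id1 was at 102, 29.5 and 27.5 CPM, and where they were most numerous at 92.9, 31.9 and 23.1 CPM. Lefty2 was at 8.28, 20.2 and 20.6 CPM in the first and at 7.31, 14.7 and 16.4 CPM in the second, higher in the treated libraries in both. Nodal was at 27.7, 17.2 and 12.0 CPM in the first and at 25.3, 10.6 and 13.5 CPM in the second, so its 3 h level was less than 2-fold lower where UMIs were fewest and the order of 3 h and 6 h differed between the parts. Cells with over 10% mitochondrial UMIs made up 1.28%, 5.24% and 1.71% of the libraries, and leaving them out kept the 3 h log2 ratio of Lefty2 at 0.90 and that of Id1 at -1.60.

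Across the 2031 control cells the Id genes were among the genes most like each other. The correlation was taken on the log of CPM + 1 per cell over 7936 genes whose mean reached 0.5 UMI per cell. Id2 was the gene most like Id1 (r = 0.24), Id1 and Id3 had ranks 1 and 3 for Id2, and Id1 and Id2 had ranks 1 and 2 for Id3 (r = 0.16 and 0.15). For comparison, the median r with Id1 over those genes was 0.03. In the treated libraries, which that choice did not use, Id2 had rank 1 for Id1 at 3 h (r = 0.17) and rank 2 at 6 h (r = 0.11). The other Id pairs did not keep their ranks: Id3 had ranks 51 and 40 for Id2, Id1 had ranks 5 and 65 for Id3, and Id2 had ranks 116 and 4 for Id3. Among the other neighbours of Id1 named next, Tuba1c had ranks 19 and 611 and Ube2c ranks 302 and 12. These are weak correlations in sparse counts that share library and depth, and at 4000 UMIs per cell that of Id1 and Id2 was 0.14, 0.04 and 0.03. Tuba1c and Ube2c came next for Id1, at 0.23 and 0.22. Stmn1, a regulator of microtubules, had rank 2 for Id2 at 0.16, and Pim1, a kinase gene induced by STAT3, rank 3 for Id3 at 0.14.

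Other genes had different neighbours by the same measure. Scd2 and Ldlrad4, an inhibitor of TGF-beta signalling, had ranks 2 and 3 for Lefty1, at 0.14 each. Tdgf1 was most like the pluripotency genes Klf5 (r = 0.26) and Zfp42 (0.24) and like Jam2 (0.22). Bmp4 was most like Tcf15, a helix-loop-helix factor (0.18), Tcea3 (0.17) and Klf5 (0.17), Nodal most like Cox6b2 (0.18), Cdkn1a and Lrrc28 (0.16 each), and Smad7 most like Msi2, Chd4 and Kat6b (0.20 to 0.21). These neighbours were mostly far down the order in the treated libraries: at 3 h Msi2 had rank 5883 for Smad7, Klf5 rank 1590 for Tdgf1 and Tcf15 rank 169 for Bmp4, and at 6 h ranks 487, 705 and 3508. Some stayed nearer the top at 6 h, with Chd4 at rank 24 for Smad7, Ldlrad4 at rank 41 for Lefty1 and Lrrc28 at rank 95 for Nodal. The ranks are from unthinned cells, and treated cells held fewer UMIs. In thinned control cells the r of each neighbour named in this paragraph was at most 0.09, and Lefty2 and Smad6 had too few UMIs per cell to be ranked. Lefty1 and Lefty2 had r = 0.23 in control cells, 0.17 after 3 h and 0.11 after 6 h, and 0.01, 0.04 and 0.11 in thinned cells. At 6 h 16 of the 104 thinned cells with a Lefty1 UMI also held a Lefty2 UMI (15.4%, 9.06 to 23.8%), against 111 of the 2538 cells without (4.37%). At 3 h this was 8 of 87 (9.20%, 4.05 to 17.3%) against 112 of 2156 (5.19%), and in the control 4 of 116 (3.45%, 0.947 to 8.59%) against 55 of 1915 (2.87%).

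Repeated UMIs in a cell were uncommon for most of the genes. Lefty2 had 2 or more UMIs in 1 of the 2031 thinned control cells, 15 of 2243 cells at 3 h and 27 of 2642 cells at 6 h, and these 27 cells held 41.5% of its 171 UMIs. Its Fano factor, the variance over the mean across cells, was 1.00, 1.35 and 1.77. At 2000 UMIs per cell the 6 h value was 1.17, so the size of the factor moved with the depth of the thinning. Id1 had the highest Fano factor of the 10 genes in the control, at 1.45, and 124 cells with 2 or more UMIs that held 44.7% of its UMIs. At 3 h and 6 h its factor was 1.18 and 1.14 and such cells numbered 25 and 24. Over all genes with a mean of at least 0.1 UMI the median factor was 1.04, 1.05 and 1.05. The factor also moves with a gene's mean, which differs between genes and libraries, so no order of unevenness is read.

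The other genes of both pathways, a list of 75 of which 28 reached a mean of 10 CPM, were counted by the same 2-fold rule. At 3 h 4 of the 28 (Tgif1, Usp9x, Ldlrad4 and Tbx3, 14.3%) were at least 2-fold lower and 0 higher. Of all genes counted, 5.54% were lower by that much and 0.888% higher. At 6 h 2 (Tgif1 and Tbx3, 7.14%) were lower and 0 higher, against 4.41% and 2.33% of all genes. The median log2 ratio of the 28 was -0.35 at 3 h and -0.11 at 6 h, near that of all genes. Tbx3, a BMP target and a transcription factor of naive stem cells, stood at 88.3, 25.2 and 36.8 CPM, log2 ratios of -1.77 and -1.24. Tgif1, a repressor that binds SMAD2, stood at 66.7, 31.0 and 15.0 CPM, with log2 ratios of -1.08 and -2.08 against the control and an interval from -1.23 to -0.87 between the treated libraries, so it was lower in steps as Id3 was. Ldlrad4 stood at 62.7, 25.9 and 38.7 CPM, log2 ratios of -1.25 and -0.68, lowest at 3 h as Smad7 was.

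Of 5 receptor genes with a mean of 10 CPM or more 0 passed 2-fold at either time, with medians of -0.42 and -0.13. None of the 3 SMAD genes above that mean passed 2-fold either. Of all genes counted, 5.54% and 4.41% were at least 2-fold lower and 0.888% and 2.33% higher. Nothing is read from counts of so few genes. Bmpr1a, a BMP receptor, was at 56.0, 39.5 and 51.1 CPM. Smad1, which carries BMP signals, was at 33.7, 25.3 and 31.2 CPM, Smad2, which carries Nodal signals, at 60.9, 56.1 and 67.9 CPM, and Smad4 at 64.1, 45.6 and 46.1 CPM. At the upper end of the list at 3 h were Gdf3, a ligand related to Nodal, at 0.35, Tgif2 at 0.21 and Smurf2, a ubiquitin ligase, at 0.17. At 6 h these were Smurf1, another ubiquitin ligase that acts on SMADs, at 0.52, Ski, a SMAD co-repressor, at 0.44 and Zfp423, a BMP-SMAD cofactor, at 0.39. Dusp9, a phosphatase gene that BMP signals are known to raise in these cells, was at 35.7, 39.8 and 37.2 CPM, unlike Id1. From 3 h to 6 h the highest log2 ratios were those of Ppm1a, a SMAD phosphatase, at 0.74, and of Ldlrad4 and Tcf12 at 0.56 each, and the lowest after Tgif1 were Tgif2 at -0.35 and Tcf3 at -0.23. Tcf3, Tcf4 and Tcf12 encode the factors that ID proteins bind, and against the control their log2 ratios were -0.08, -0.09 and -0.66 at 3 h and -0.31, -0.08 and -0.10 at 6 h. Some listed genes under a mean of 10 CPM also passed 2-fold against the control, and are named here after their values were seen. The share of all genes under that mean that passed was not counted, so nothing is read from their number. Bambi, a membrane inhibitor of BMP receptors, stood at 5.78, 1.34 and 0.770 CPM (606, 40 and 19 UMIs), and the activin and Nodal receptor gene Acvr1b at 8.98, 2.84 and 6.04 CPM (942, 85 and 149 UMIs). Eng, a co-receptor, stood at 6.91, 6.32 and 15.7 CPM (725, 189 and 387 UMIs), and the ligand gene Bmp8b at 1.49, 5.82 and 10.7 CPM (156, 174 and 264 UMIs). None of the 8 Nodal or activin targets of differentiating cells on the list, such as Eomes and Mixl1, reached a mean of 10 CPM.

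**Figure D5:**
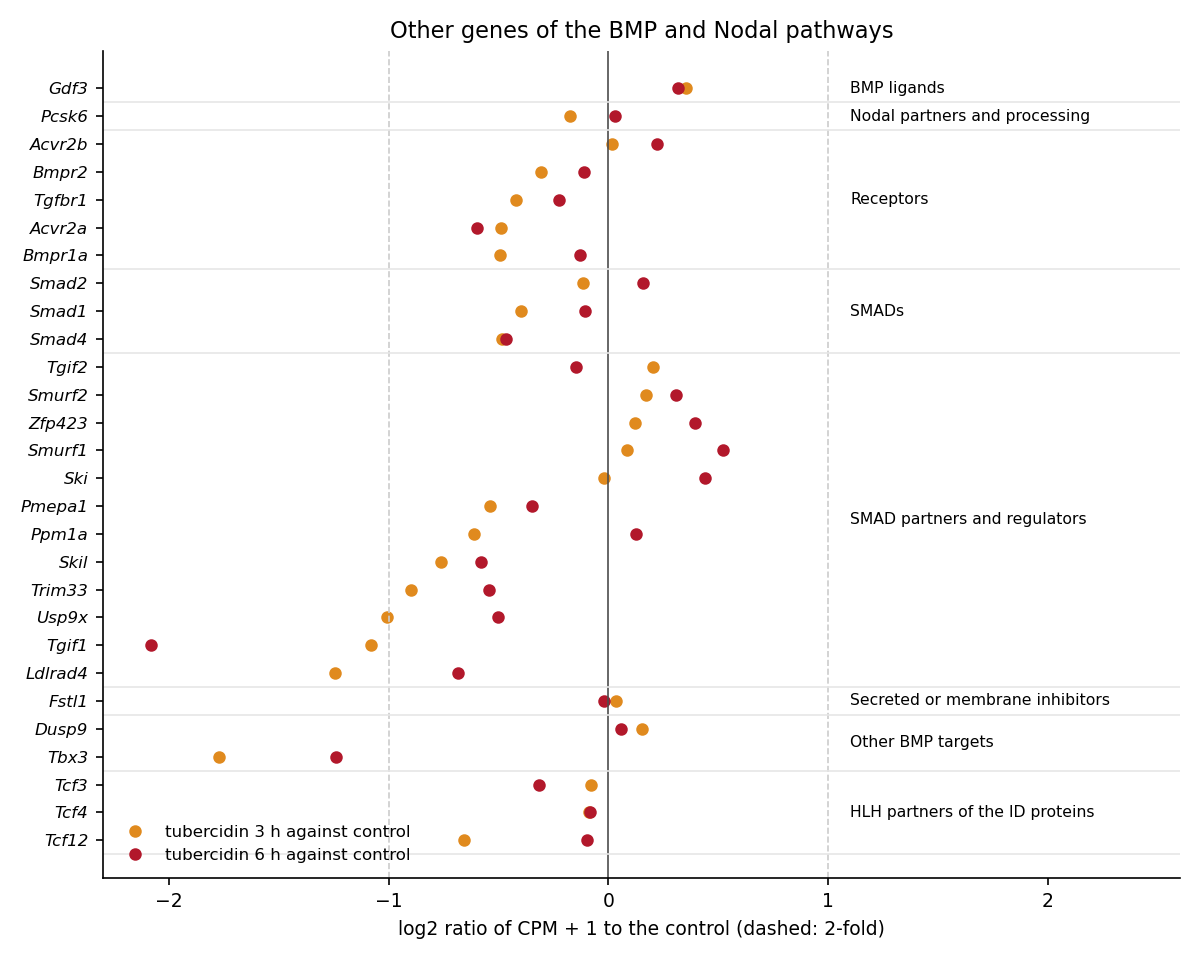
Log2 ratio of CPM + 1 to the control (x axis) at 3 h and 6 h for the 28 other pathway genes whose mean reached 10 CPM (y axis), grouped by role; dashed lines mark 2-fold. Tgif1 (-2.08 at 6 h) and Tbx3 (-1.77 at 3 h) lie furthest to the left, and no gene reaches 2-fold on the right.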

How the data were processed

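Single-cell RNA libraries of 3 cultures were prepared on the 10x Genomics platform, 1 library per condition. The authors deposited matrices of raw UMI counts, unnormalised; the tool was Cell Ranger 7.1.0 and the build mm10, per the file headers and the submitters' processing notes. The annotation version and the use of strand are not given in the sources used here.

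Barcodes were kept as cells with at least 1/10 of the 99th percentile of UMIs of the top 3000 barcodes, 500 genes or more, and mitochondrial UMIs of no more than 20%. No doublet caller was run. UMIs were summed over cells and scaled to CPM. Log2 ratios used CPM + 1, and exact intervals of ratios, which cover counting error only, used no pseudocount. With 1 library per group no test was made, and genes were counted by a 2-fold rule: all genes among those with a mean of at least 10 CPM, and the 10 genes without that filter, which Smad6 does not pass. Cells were thinned to 4000 UMIs for shares, Fano factors and thinned correlations. The ratio calculation was tested on simulated data.

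The genes named are all 10 genes of the group, the 3 highest and 3 lowest log2 ratios of the pathway list in each comparison, and the 3 genes most correlated with each gene that has a mean of at least 0.5 UMI per control cell. The gene at rank 1 for Lefty1 is not reported here. Other genes of the pathway list were named after their values were seen, for their roles. The genes and lists were chosen with earlier results of these data known. Gene positions are from GENCODE M21 on GRCm38, in which 32235 of 32285 identifiers were found, and promoters from RefSeq. No RefSeq promoter was matched for Id1, Smad7, Lefty1 and Lefty2. Alternatives varied the cell cut-off, mitochondrial limit, doublet limit, scaling, free RNA, weighting of cells, pseudocount, fold, filter and thinning. Computation used edgeR 4.0.16 under R 4.3.3 (TMM factors only), and scipy 1.17.1, pandas 2.3.3, numpy 2.4.6 and matplotlib 3.10.9 under Python 3.11.15.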

Additional observations from a re-analysis of the deposited data

Results flagged for a closer look

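Ppm1a, a SMAD phosphatase of the pathway list, lay on opposite sides of the control at the 2 times. Its log2 ratio was -0.61 at 3 h (counting interval -0.71 to -0.54) and 0.13 at 6 h (0.06 to 0.20), with 74.2 CPM in control cells, 48.2 CPM after 3 h and 81.0 CPM after 6 h. The difference between the times was not tested, since each time is 1 library and both share the control.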

How the results depend on the processing

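Against the control, the signs of the log2 ratios of the 10 genes were the same under 11 of 11 alternatives other than UMIs per cell. With UMIs per cell, 9 genes at 3 h and 10 at 6 h were at least 2-fold lower, as were 98.7% and 99.2% of all genes, so these counts say nothing of the 10. On that scale 2 were so at 6 h against 3 h (2.19% of all genes), 0 were higher at 6 h, and the signs of Lefty2 at 3 h and 6 h (-0.86 and -1.24) and of Tdgf1 at 3 h (-1.31) reversed. With median-of-ratios factors 2 genes were at least 2-fold lower at 3 h (2.11% of all genes). That count was 3 with TMM factors (2.56%), with free RNA subtracted (4.58%) and with each cell at the same weight (4.22%). At 6 h 4 were lower with TMM factors (4.92%) and with cells above 2 times the median UMIs left out (4.49%). The same count came with each cell at the same weight (4.38%) and with a pseudocount of 0.1 CPM (5.14%). Lefty2 became the 1 gene at least 2-fold higher at 3 h with median-of-ratios (1.76% of all genes) or TMM factors (1.6%). It was also so with cells above 2 times the median UMIs left out (0.926%) and with each cell at the same weight (0.951%). At 6 h 0 of the 10 genes were at least 2-fold higher with TMM factors (2.14% of all genes) and with the lower cell cut-off (1/20, 2.35%). None of the 10 were so with the cells of many UMIs left out (2.32%) or with each cell at the same weight (2.33%). A 1.5-fold rule gave 2 genes higher at 3 h (3.61% of all genes), 5 lower at 6 h (16.9%), and 2 lower (1.67%) and 1 higher (8.51%) at 6 h against 3 h. Of all genes, a mean of at least 50 CPM left 95 lower and 22 higher after 3 h, 75 lower and 42 higher after 6 h, and 4 lower and 23 higher between the treated libraries. Without a filter 855 were lower and 226 higher after 3 h, 707 lower and 679 higher after 6 h, and 33 lower and 389 higher between the treated libraries, since fewer or more genes were counted. The cause of the other differences was not tested. No paired analysis was possible because each condition is a single library. Depth limits Smad6 most, with 53 and 52 UMIs in the treated libraries, and spread between cultures cannot be estimated.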
